A study of Mus musculus with 3 samples.

Results

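The genes described here are 6 metabotropic glutamate receptor genes, Grm2, Grm3, Grm4, Grm5, Grm7 and Grm8, and the 3 Homer genes, Homer1, Homer2 and Homer3. The rule takes them by symbol and uses no measured value, and all 9 were found among the 32531 gene rows of each count table. The tables come from RNA bound to tagged ribosomes (translating ribosome affinity purification, TRAP) of the cerebral cortex of adult C57BL/6J mice of the line Kcnip2-TRAP NIDA115, which carries EGFP/Rpl10a under regulatory sequences of Kcnip2. The 3 libraries, replicates 1, 2 and 3, are immunopurified (IP) samples of 1 untreated group that share this transgene. The values are therefore levels within the immunoprecipitate and not enrichments over whole cortex, for which input was not analysed here. The labels do not say whether the libraries come from separate animals, so their spread may be technical.

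Metabotropic glutamate receptors are receptors coupled to G proteins that tune synapses more slowly than the glutamate-gated channels. Group I receptors, Grm5 among them, couple to Gq and phospholipase C and sit mostly around the postsynaptic density. Group II (Grm2, Grm3) and group III (Grm4, Grm6, Grm7, Grm8) couple to Gi/o, lower cyclic AMP and are largely presynaptic, and Grm3 is also expressed by astrocytes. Homer proteins bind a proline-rich motif of group I receptors, Shank proteins, IP3 receptors and ryanodine receptors through their EVH1 domain, and the long forms join these partners through a coiled coil. The short form Homer1a, made from the same gene after neuronal activity, lacks the coiled coil and competes with the long forms.

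Coding sequence of the receptors is shown first because it sets Grm5, with a Homer ligand near its carboxyl end, apart from the other 5 receptors. The longest annotated coding sequence of each gene (GENCODE M21, GRCm38, the assembly that mm10 names) was searched in frame, on the coding strand, for codons of the Homer ligand, which is 2 prolines, any 2 residues and a phenylalanine. Matches were found in 3 of the 6 receptor members, against 6.93% of 21549 genes, and in none of the 3 Homer genes. The share over all genes was not matched for coding length, so the 2 figures do not show an excess among the receptors. In the lines below the 5 codons of the match are in capitals, read 5′ to 3′ on the coding strand.
Grm5: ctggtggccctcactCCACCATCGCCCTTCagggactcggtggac
Grm2: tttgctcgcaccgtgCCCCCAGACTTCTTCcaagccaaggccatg
Grm7: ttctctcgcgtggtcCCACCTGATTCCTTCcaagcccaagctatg
The Grm5 stretch lies at chr7:88130708-88130752 on the plus strand and begins its match at codon 1156 of 1203, so that 47 codons follow the first codon of the match. The matches of Grm2 (chr9:106651099-106651143, minus strand) and Grm7 (chr6:110914390-110914434, plus strand) begin at codon 186 of 872 and codon 200 of 922, in the front part of the protein. The Grm2 and Grm7 stretches read much alike and may not be independent matches. Binding of Homer at the matched codons was not tested. Grm3, Grm4 and Grm8 had no such codons in their longest coding sequence.

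Of the 9 genes, 8 were detected at 1 CPM (counts per 1e6 counts of the library size scaled by the TMM method) or more in all 3 libraries, against 37.3% of all gene rows. Libraries held 11602248 to 14174384 gene counts, and a gene without a read could still have been present at up to 3 counts, or 0.213 to 0.256 CPM. Markers of neurons and of astrocytes were both present: all 11 pan-neuronal, all 10 GABAergic and 8 of 9 glutamatergic marker genes were detected, and so were all 12 astrocyte markers. In such bulk RNA, fewer cells of a type and less RNA per cell cannot be told apart. Levels are compared between genes only after division by the union exon length in kilobases (CPM per kb), and all ± values are SDs over n = 3 libraries.

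Homer1 was the most abundant of the 9 genes per kilobase. It encodes a scaffold of the postsynaptic density and spans chr13:93299635-93405129 (plus strand). Homer1 had 233, 246 and 275 CPM in replicates 1, 2 and 3, or 19.5, 20.5 and 22.95 CPM per kb. Its mean of 20.98 ± 1.78 CPM per kb lay at the 89.0 percentile of the 16629 genes with a read and an exon length, with a range of 88.2 to 90.0 over libraries. The count sums all 12 annotated transcripts, so Homer1a and the long forms are not separated in it.

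Homer2, a scaffold with the same EVH1 and coiled-coil layout (chr7:81600481-81707527, minus strand), was the second Homer gene. Its level was 8.46, 8.79 and 9.50 CPM per kb in replicates 1, 2 and 3, a mean of 8.92 ± 0.53 at the 76.1 percentile. Homer1 exceeded Homer2 in 3 of 3 libraries by a log2 ratio of 1.23 ± 0.04 per kb, a 2.35-fold difference. The ratio was 2.10 on the log2 scale with the longest annotated transcript as divisor, because the union exon length of Homer1 is 11976 bases and its longest transcript 5713.

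Homer3, a scaffold best known from cerebellar Purkinje cells (chr8:70282827-70294361, plus strand), was barely present. It had 1, 5 and 3 counts in replicates 1, 2 and 3, or 9 in all, with an exact Poisson 95% interval of 4.12 to 17.1 counts. Replicate 2 alone was above the limit of 3 counts. Over the summed counts, Homer1 was 317-fold above Homer3 per kb, with an exact counting interval of 167 to 694, and Homer2 was 135-fold above it (70.9 to 295). In the annotation 874 of the 3440 exonic bases of Homer3 overlap exons of Ddx49 on the other strand, and the labels do not say how the counting treated such reads.

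Among the Homer members, Homer1 thus supplied 70.0% ± 0.52 of the level per kb, Homer2 29.8% ± 0.52 and Homer3 0.215% ± 0.14. The Homer1 share lay between 69.7% and 70.6% in the 3 libraries.

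The promoter windows of the most and the least abundant Homer gene are shown because their levels stand farthest apart. Each window runs from 250 bases before to 50 bases after a RefSeq start (GRCm38.p6), and the search was for TGACG, the core of the cyclic AMP response element, on both strands. Matches are in capitals.
Homer1: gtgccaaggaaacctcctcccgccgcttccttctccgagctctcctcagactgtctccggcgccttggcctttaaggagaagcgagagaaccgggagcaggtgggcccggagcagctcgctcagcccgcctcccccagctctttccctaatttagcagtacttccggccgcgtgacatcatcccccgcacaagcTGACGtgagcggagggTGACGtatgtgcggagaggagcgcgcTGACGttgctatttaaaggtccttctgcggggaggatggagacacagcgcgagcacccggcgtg
Homer3: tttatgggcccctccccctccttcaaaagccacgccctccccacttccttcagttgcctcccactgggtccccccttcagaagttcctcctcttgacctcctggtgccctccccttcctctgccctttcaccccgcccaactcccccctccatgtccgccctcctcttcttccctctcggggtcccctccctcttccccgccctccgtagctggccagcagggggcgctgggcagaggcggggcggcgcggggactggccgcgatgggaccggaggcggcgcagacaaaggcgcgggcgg
The Homer1 window (chr13:93303507-93303806, plus strand) held 3 TGACG matches, a number reached or passed by 1.03% of 32851 windows of this length. At least 1 match was held by 20.8% of windows. The 1.03% was not matched for base composition and Homer1 was 1 of several members searched, so it does not show an excess. The Homer3 window (chr8:70282749-70283048, plus strand) held 0. Neither window held the full element TGACGTCA, which was present in 1.79% of windows. Windows of 7 of the 9 members were available, several with more than 1 start. The second Homer1 window, both Homer2 windows and the windows of Grm2, Grm3 and Grm7 held 0 TGACG matches. The second window of Grm8, the lowest detected receptor, held 1. A relation of such matches to level was not tested, and the letters describe the sequence and show no binding.

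**Figure D1:**
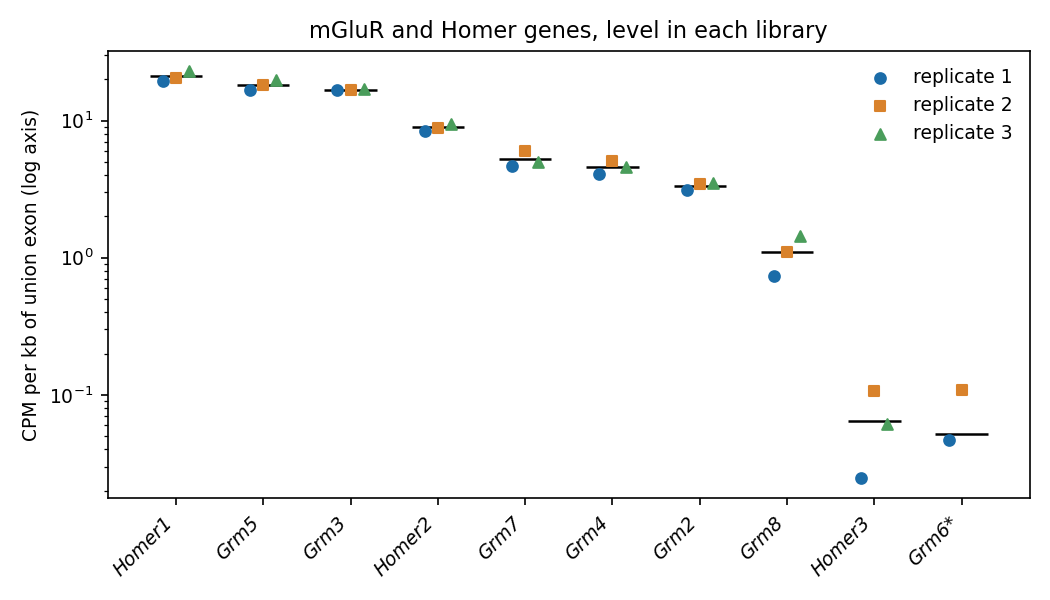
Level of each gene in CPM per kb of union exon on a log axis, 1 point per library and a line at the mean of 3 libraries; an asterisk marks Grm6, a receptor gene outside the set of 9, and its replicate 3 value, 0, is not drawn. Homer1, Grm5 and Grm3 lie between 16.6 and 22.95 CPM per kb, and Homer3 and Grm6 lie at or below 0.109.

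Grm5, the Gq-coupled group I receptor that carries the Homer ligand shown above (chr7:87584168-88134907, plus strand), led the receptors. It had 171.5, 187 and 203 CPM in replicates 1, 2 and 3, or 16.7, 18.3 and 19.8 CPM per kb, a mean of 18.3 ± 1.52 at the 87.3 percentile. Homer1 lay above Grm5 in 3 of 3 libraries, by a log2 ratio of 0.20 ± 0.03 per kb, although the ranges of the 2 genes over libraries overlapped. This within-library ratio was 0.22, 0.17 and 0.21 in replicates 1, 2 and 3. Such a small spread is not particular to receptor and scaffold, since the log2 ratio of Homer1 to Homer2 had an SD of 0.04. With the longest transcript as divisor the mean log2 ratio of Homer1 to Grm5 was 0.92.

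Grm3, the group II receptor that astrocytes share with neurons (chr5:9485541-9725170, minus strand), stood next to Grm5. Its level was 16.8, 16.6 and 16.9 CPM per kb in replicates 1, 2 and 3, a mean of 16.8 ± 0.18. Grm5 was above Grm3 in 2 of 3 libraries, with a log2 ratio of 0.12 ± 0.12 per kb, so their order was not separated. The pair differed more before division by length (log2 ratio 1.87), since Grm3 has 3049 exonic bases and Grm5 10247. The 12 astrocyte marker genes summed to 2933, 4672 and 3993 CPM in replicates 1, 2 and 3, with none at 0, and Grm3 moved 1.02-fold between its lowest and highest library. The part of astrocyte RNA in the Grm3 level was not tested.

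Grm2, the other group II receptor and a presynaptic autoreceptor (chr9:106643095-106656082, minus strand), was far lower. It had 3.10, 3.46 and 3.52 CPM per kb in replicates 1, 2 and 3, a mean of 3.36 ± 0.23. Grm2 was below Grm3 in 3 of 3 libraries, at a log2 ratio of -2.32 ± 0.10 per kb.

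Group III receptors came lower than Grm5 and Grm3, in the order Grm7, Grm4 and Grm8. Grm7, a low-affinity receptor of the presynaptic active zone (chr6:110645581-111567230, plus strand), had 4.63, 6.05 and 5.02 CPM per kb in replicates 1, 2 and 3. Grm4, a presynaptic receptor best known from cerebellar granule cells (chr17:27422387-27521403, minus strand), had 4.05, 5.07 and 4.59 CPM per kb. Grm7 lay above Grm4 in 3 of 3 libraries by a log2 ratio of 0.19 ± 0.06 per kb, but their ranges overlapped, and both were highest in replicate 2.

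Grm8, another presynaptic receptor (chr6:27275119-28135178, minus strand), was the lowest detected receptor, with 0.741, 1.10 and 1.44 CPM per kb in replicates 1, 2 and 3. Grm7 exceeded Grm8 in 3 of 3 libraries by a log2 ratio of 2.30 ± 0.44 per kb. The divisor matters for this gene, since its union exon length is 9898 bases and its longest transcript 4799, and the log2 ratio of Grm7 to Grm8 was 1.74 with the longest transcript.

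Ranked by mean CPM per kb, the 9 genes ran Homer1, Grm5, Grm3, Homer2, Grm7, Grm4, Grm2, Grm8 and Homer3. Library ranges overlapped between Homer1 and Grm5, between Grm5 and Grm3 and between Grm7 and Grm4, and did not overlap between the other 5 neighbouring pairs. The order of Grm3 and Homer2 depends on the divisor. With no length Homer2 was above Grm3 in every library, at 112.6 ± 6.71 against 51.15 ± 0.54 CPM. Of the 10 pair ratios computed, 9 had the same sign in all 3 libraries, the exception being Grm5 over Grm3. An exact two-sided sign-flip permutation test of 3 libraries cannot go below p = 0.25, so that test can call none of these orders, and they are given as a description of these libraries. Within the 6 receptors, Grm5 supplied 37.0% ± 1.35 of the level per kb, Grm3 34.1% ± 2.04, Grm7 10.6% ± 1.19, Grm4 9.26% ± 0.67, Grm2 6.81% ± 0.07 and Grm8 2.19% ± 0.60. By counts without a length, the Grm5 share was 57.8% and the Grm3 share 15.9%.

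**Figure D2:**
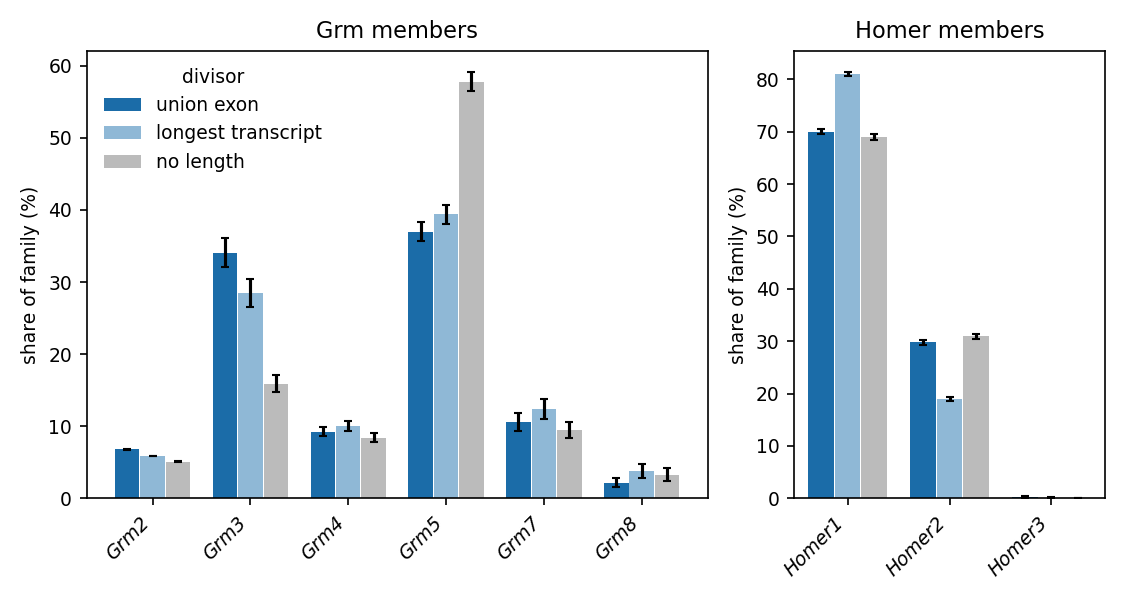
Share of each gene in its family, in percent of the summed level of 6 receptor genes (left) and of 3 Homer genes (right), as mean with SD over 3 libraries, for 3 divisors: union exon length, longest annotated transcript and none. The Grm5 share is 37.0%, 39.4% and 57.8% under these divisors, and the Grm3 share 34.1%, 28.5% and 15.9%.

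Grm6, the group III receptor of retinal ON bipolar cells, was measured beside the members and had 3, 8 and 0 counts in replicates 1, 2 and 3. Per kb, and over the summed counts, Grm8 was 21.6-fold above Grm6, with an exact counting interval of 12 to 43.6. Group II genes summed to 20.1 ± 0.29 CPM per kb, with 19.9, 20.1 and 20.5 in replicates 1, 2 and 3, and group III genes, Grm6 included, summed to 10.95 ± 1.43 CPM per kb, with 9.47, 12.3 and 11.1. The group III sum was highest in replicate 2 and, per kb, below the group II sum in every library. This direction depends on the divisor: by CPM with no length the sums were 59.1, 77.3 and 71.2 for group III and 66.4, 67.5 and 68.9 for group II in replicates 1, 2 and 3, so group III was the higher in replicates 2 and 3.

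No member was called variable between libraries, a count that says nothing particular of the members, since few genes were called at all. Of the 8 members with enough counts to be tested (filterByExpr in edgeR, minimum count 10), 0 passed edgeR's quasi-dispersion test, which sets a gene's spread against that of genes of the same level, and 0 had an unadjusted p under 0.05, against 723 of all 12509 genes tested. Over all genes the test called 12, or 0.0959%, and 4 without replicate 2. DESeq2's dispersion outlier flag marked 28 genes and 0 members. The median coefficient of variation of the 8 members was 8.41%, against 15.2% over the 12509 genes. These medians are not matched for level, and counting adds more spread at low counts, so they do not show the members as unusually stable. Homer3, below the filter, was not tested.

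Among the 8 members tested, Grm3 had the smallest coefficient of variation and Grm8 the largest. The coefficient of variation of Grm3 was 1.05%, below the 3.87% that counting alone would give, and its F ratio of spread to trend was 0.00802 (edgeR adjusted p = 0.999). Grm2 varied by 6.71%, near its counting value of 6.86%. Grm8 varied by 32.0%, against a counting value of 8.83%, with a highest library 1.94-fold above the lowest and an F ratio of 1.86 (edgeR adjusted p = 0.979). Grm5 and Homer1 varied by 8.32% and 8.49%, Homer2 by 5.96%, Grm4 by 11.1% and Grm7 by 14%. A call missed by a gene such as Grm8 does not show that its level was the same in the 3 libraries.

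**Figure D3:**
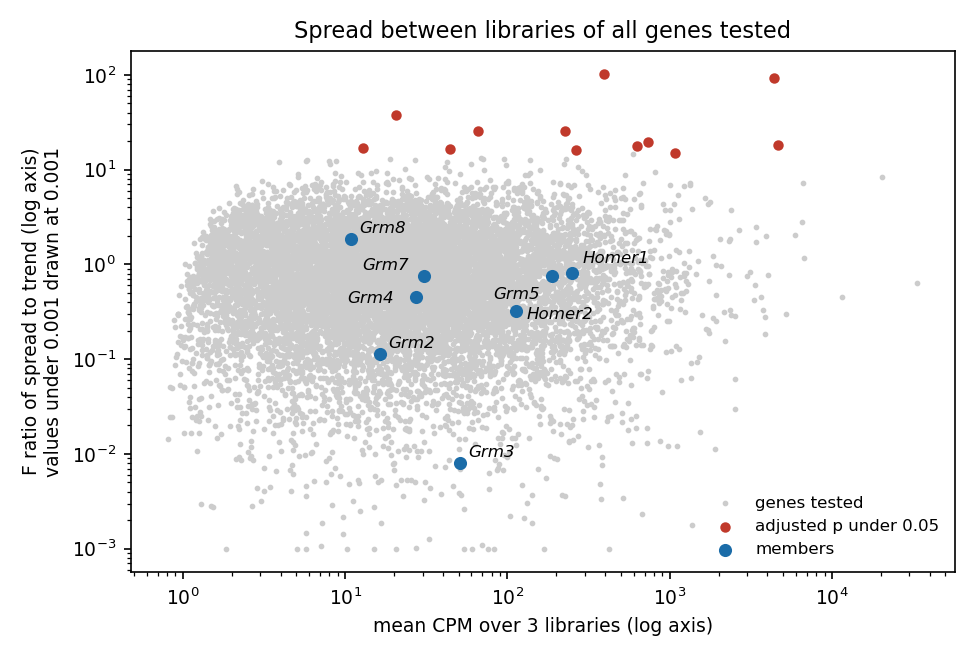
F ratio of each gene's spread between libraries to the fitted trend, against its mean CPM, both on log axes, for the 12509 genes tested; red points are the 12 genes with an adjusted p under 0.05 and blue points the 8 members tested. The members lie between 0.00802 (Grm3) and 1.86 (Grm8), within the cloud of all genes.

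Replicate 1 held the lowest value of most members. Of the 8 members tested, 7 had their lowest CPM in replicate 1, against 36.6% of all genes tested, and the exception was Grm3, lowest in replicate 2. A total of 6 members were highest in replicate 3, against 30.8% of all genes tested, and 5 when libraries were scaled by total gene counts. The median log2 deviation of the members from their own mean was -0.12 in replicate 1, 0.00 in replicate 2 and 0.08 in replicate 3, while that of all genes tested was within 0.01 of 0. None of these shifts passed a test for a single member. Such a profile was not particular to the members. The 16 detected group I coupling genes, described below, had medians of -0.12, 0.02 and 0.07, with 12 lowest in replicate 1. Those of the 11 pan-neuronal genes were -0.10, 0.04 and 0.03, with 7 lowest in replicate 1. In replicate 1 AMPA and NMDA receptor genes were at -0.087 and -0.115, but kainate receptor genes at 0.114 and receptor-binding genes at 0.04. Replicate 1 also stood apart in its reads: 61.9% of its tallied reads fell in genes, against 67.6% in replicate 2 and 70.7% in replicate 3, and 19.4% did not align uniquely, against 15.8% and 13.8%. Counts of replicate 1 differed from those of replicates 2 and 3 by 21.8 and 28.5 chi-square units per degree of freedom, and replicates 2 and 3 differed by 12.3.

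The medians of some marker lists were also lowest in replicate 1, and those of others were not. The 8 detected glutamatergic genes were all lowest in replicate 1, with a median deviation on the log2 scale of -0.26 in replicate 1, 0.04 in replicate 2 and 0.18 in replicate 3, and the 9 genes of the list summed to 7168, 8790 and 9731 CPM. Of the 19 immediate early genes, which neuronal activity induces as it does Homer1a, 15 were lowest in replicate 1, with deviations of -0.40, 0.12 and 0.22. One of them, the prostaglandin synthase gene Ptgs2, was among the 12 genes called variable, with 20.5, 46.5 and 65.75 CPM in replicates 1, 2 and 3 (edgeR adjusted p = 0.0266). The interneuron peptide gene Sst was called as well, with 429, 551 and 895 CPM (edgeR adjusted p = 0.0193). Of the 3 detected somatostatin interneuron genes, Sst among them, 2 were lowest in replicate 1. Astrocyte genes were at -0.39, 0.25 and 0.03 by the median deviation, with 8 of 12 lowest in replicate 1. GABAergic genes ran the other way, at 0.12, -0.05 and -0.11, with 1 of 10 lowest in replicate 1. The part of cell makeup, of activity or of the read quality of replicate 1 in the members' levels was not tested.

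**Figure D4:**
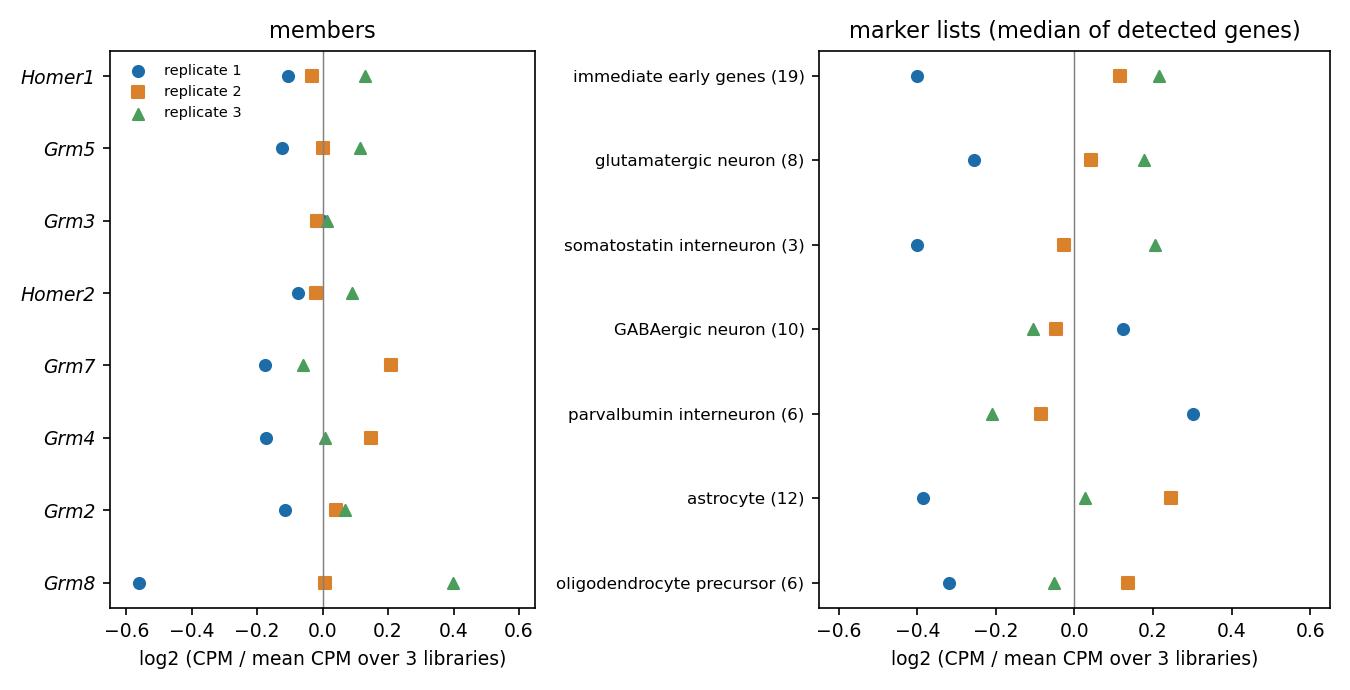
Log2 of CPM in each library over the mean of 3 libraries, for the 8 members tested on the left, and as the median of detected genes (number in brackets) of 7 marker lists on the right. Replicate 1 is the lowest point for 7 of 8 members, for the medians of glutamatergic, immediate early, somatostatin, astrocyte and oligodendrocyte precursor genes, and the highest for GABAergic and parvalbumin genes. Single genes can differ from their median: 2 of 3 somatostatin, 8 of 12 astrocyte and 4 of 6 oligodendrocyte precursor genes were lowest in replicate 1.

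Signalling partners of both receptor classes were mostly detected, by a rule that 37.3% of all gene rows met. None was called variable, and with 0.0959% of all genes called this is no result about the partners. Of 18 genes of group I coupling (Gq proteins, phospholipase C beta, IP3 receptors, protein kinase C and diacylglycerol kinases) 16 were detected, with a median of 20.8 CPM per kb. The kinase genes Prkcb and Prkce were at 527 ± 40.7 and 90.2 ± 7.46 CPM per kb, and the IP3 receptor gene Itpr3 was lowest at 0.0321 ± 0.028. Of 16 genes of group II and III coupling (Gi/o proteins, adenylyl cyclases and GIRK channels) 15 were detected, with a median of 11.8 CPM per kb. The G protein genes Gnai1 and Gnao1 led at 317 ± 14.1 and 209 ± 16.3 CPM per kb, and the cyclase gene Adcy7 was lowest at 0.309 ± 0.20.

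Genes listed as partners of Homer or of the receptors were present as well. All 19 Homer ligands and partners in the tables were detected, led by the scaffold genes Shank1 at 98.05 ± 8.34 and Dlgap1 at 46.5 ± 2.67 CPM per kb, with the ryanodine receptor gene Ryr1 lowest at 0.119 ± 0.053. The coding sequences of Shank1 and Ryr1 each held 1 match of the Homer ligand codons, and that of Dlgap1 held 0. Those of the ryanodine receptor genes Ryr2, at 6.33 ± 0.34 CPM per kb, and Ryr3, at 1.15 ± 0.46, also held 0. Thus not every listed partner carries such codons. All 16 receptor-binding genes were detected: Ncdn, which encodes the Grm5-binding protein norbin, was at 121 ± 10.2 CPM per kb and the calcium sensor gene Cabp1 at 1.32 ± 0.15. Elfn1, a postsynaptic adhesion gene whose protein recruits Grm7 across the synapse, was at 22.2 ± 4.71 CPM per kb and had 70.2, 101 and 107 CPM in replicates 1, 2 and 3 (edgeR adjusted p = 0.789). Of 10 genes of group I output, the microtubule protein gene Map1b led at 330 ± 16.4 and the elongation factor gene Eef2 followed at 154 ± 11.7 CPM per kb, and the diacylglycerol lipase gene Daglb was lowest at 0.845 ± 0.34.

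Set beside the glutamate-gated channels, the 9 members had a median of 5.23 CPM per kb, between the 7 NMDA receptor genes (2.10) and kainate receptor genes (4.47, 5 genes) on the lower side and the 4 AMPA receptor genes (37.6) on the upper side. The 16629 genes with a read and a length had a median of 2.24 CPM per kb. Homer1 and Grm5 lay below the lowest AMPA receptor gene, Gria4, at 31.4 ± 0.71 CPM per kb. They also lay below the NMDA receptor gene Grin1 at 27.9 ± 4.59 and above Grin2b at 6.66 ± 0.29. Homer1 was below Grin1 within each library, but their ranges overlapped (22.95 for Homer1 in replicate 3, 22.65 for Grin1 in replicate 1). The place of Homer1 depends on the divisor: per kb of the longest transcript it was at 43.98 ± 3.74, above Gria4 (36.4 ± 0.83) and below Grin1 (63.3 ± 10.4). Its order to Gria1 (42.0 ± 1.70) was not separated on that scale. There Homer1 had 40.85, 42.98 and 48.12 and Gria1 43.08, 40.07 and 42.94 in replicates 1, 2 and 3. Grm5, at 23.3 ± 1.93 on that scale, was below Gria4. The members' median by CPM with no length, 30.8, was below that of the NMDA (37.3) and kainate receptor genes (44.95). These medians also depend on which genes each list holds, and the lists were not tested against each other.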

How the data were processed

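RNA immunopurified with tagged ribosomes was sequenced in 3 libraries of 1 group. The deposited values are raw counts of reads per gene symbol, made with STAR 2.0.0e and HTSeq on mm10, per the submitters' processing notes; counting mode, strand setting, annotation release and library kit are not stated in the labels. Rows that name no gene (outside features 12.8% to 16.4%, ambiguous 2.37% to 2.65%, not uniquely aligned 13.8% to 19.4% of tallied reads) were left out. Pairs of libraries differed by 12.3 to 28.5 chi-square units per degree of freedom, so none repeats another.

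CPM was computed with TMM library sizes (edgeR 4.0.16, R 4.3.3) and divided by union exon length (GENCODE M21), found for 96.7% of 12509 tested genes. Spread between libraries was tested with a robust intercept-only quasi-likelihood fit in edgeR (glmQLFit; upper tail of the F ratio of quasi-dispersion to trend), Benjamini-Hochberg adjusted over all genes at 0.05, after a check on simulated data. DESeq2 1.42.0 gave alternatives. Intervals and floors cover counting error only.

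Named genes are the 9 members, Grm6, the 2 highest and the lowest of each pathway list per kb, and any called variable. Ryr2 and Ryr3 were named in addition, beside Ryr1. With 3 libraries no gene was named for a pattern like a member's. Some genes of the lists are not reported here. The members are taken by symbol, but members and lists were chosen with earlier results of these data known. Exons of antisense genes overlap those of Grm2 (470 bases), Grm7 (130) and Homer2 (525), and those of Mir592 overlap Grm8 on the same strand (96); how the counting treated reads there is not stated. Sequences are from GENCODE M21 and RefSeq.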

Additional observations from a re-analysis of the deposited data

How the results depend on the processing

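The count of members called variable stayed at 0 under DESeq2 size factors, no count filter, no robust moderation, DESeq2's outlier flag and without any 1 library. The count over all genes, 12, was 66 with no filter, 5 without robust moderation, 28 by DESeq2's flag and 4 to 10 with 1 library left out. Detected members stayed at 8 under every setting tried, 5 CPM included, and members lowest in replicate 1 stayed at 7 under both other scalings, tried after seeing the data. No log2 ratio of the pairs computed changed sign. The order of Grm3 and Homer2, not among those pairs, turned with no divisor. The log2 ratio of the group III to the group II sum, tried after seeing the data, was -0.89 per kb, -0.98 to -0.80 with 1 library left out, -0.39 with the longest transcript and 0.025 with no divisor, where it turned. With the longest transcript as divisor the median level of the members was 7.32 CPM per kb, and log2 ratios were 0.47 for Grm5/Grm3, 1.74 for Grm7/Grm8, 0.30 for Grm7/Grm4, -1.44 for Grm8/Grm4, 2.10 for Homer1/Homer2 and 0.92 for Homer1/Grm5, with shares of 39.4% for Grm5, 28.5% for Grm3 and 80.95% for Homer1. With no divisor they were 1.87 for Grm5/Grm3, 2.61 for Grm5/Grm7, -1.64 for Grm2/Grm3, 1.55 for Grm7/Grm8, -1.38 for Grm8/Grm4, 1.16 for Homer1/Homer2, 10.38 for Homer1/Homer3, 9.22 for Homer2/Homer3 and 0.43 for Homer1/Grm5, with shares of 57.8%, 15.9% and 69.0%. These moves follow from the divisor itself. No paired analysis was possible because there is 1 group. Depth limits statements on Homer3 and Grm6, at 9 and 11 counts in all.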
